A study of Homo sapiens with 6 samples.

Results

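The AP-1 and early growth response factors described here are 10 genes, chosen by name, with earlier results of these data known. They are FOS, FOSB, FOSL1 and FOSL2 of the FOS family, JUN, JUNB and JUND of the JUN family, and ATF3, EGR1 and IER2. All 10 were among the 56638 gene symbols with a read count, and all 10 were among the 14685 with enough reads to be tested. Messenger RNA was sequenced from cells labelled HT29, an established human colorectal cancer line labelled wild type, in 2 groups of 3 libraries. The RNF6 siRNA group received siRNA against RNF6, a RING-type ubiquitin ligase, and the control siRNA group received nonspecific siRNA. The sources used here do not give the siRNA sequences or the time to harvest, nor whether replicates were separate cultures, so the spread behind each p-value may be technical.

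AP-1 is a family of dimeric transcription factors. FOS proteins pair with JUN proteins through a leucine zipper, JUN proteins can also pair with each other, and the dimers bind short DNA elements at genes of growth, invasion and stress. Many of the genes are immediate-early genes: serum, growth factors or stress raise their mRNA within minutes through the ERK, JNK and p38 kinases, and the mRNA decays fast. EGR1 is a zinc finger factor of the same early wave, ATF3 is a stress-induced factor of the ATF/CREB family that can pair with JUN proteins, and IER2 is a nuclear protein of the early response.

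Reads assigned to genes numbered 6808771 to 11071456 per RNF6 siRNA library and 7173957 to 9366532 per control library. RNF6, the targeted gene, was at 16.5, 16.2 and 16.9 CPM (normalised counts) in RNF6 siRNA replicates 1, 2 and 3, against 54.3, 45.2 and 57.8 CPM in control replicates 1, 2 and 3, so each library matched its label. The colon label was only partly borne out. EPCAM, CDH1, CDX2 and the keratins KRT8, KRT18 and KRT19 were present, whereas 9 of 16 colon epithelial markers averaged under 1 CPM, among them VIL1, LGALS4, CDH17 and CEACAM5, and CDX1, TFF3 and FABP1 had 0 reads in every library. Of 16 markers of fibroblasts, endothelium and blood cells, 13 averaged under 1 CPM and PECAM1 and CD68 had 0 reads in every library. The marker COL1A1 alone gave most of that list's summed level, which was 72.2 to 87.8 CPM in RNF6 siRNA and 53.2 to 70.7 CPM in control libraries.

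The members divided into genes that rose, genes that fell and genes that did not pass the test. FOSL2 and JUND rose, JUNB, EGR1 and IER2 fell, and FOS, FOSB, FOSL1, JUN and ATF3 did not pass. The 5 of 10 members called at an adjusted p under 0.05 compare with 32.7% of all tested genes. The bases just before the start of the 5 genes that passed are shown because these genes moved in opposite directions, and 9 of the 10 members had a window in the RefSeq table of GRCh38.p14. Each sequence runs 5′ to 3′ and ends at the base before the annotated start. FOSL2 is on the plus strand at chr2:28392608-28392857, JUND on the minus strand at chr19:18281623-18281872, JUNB on the plus strand at chr19:12791236-12791485, EGR1 on the plus strand at chr5:138465229-138465478 and IER2 on the plus strand at chr19:13150161-13150410.
FOSL2: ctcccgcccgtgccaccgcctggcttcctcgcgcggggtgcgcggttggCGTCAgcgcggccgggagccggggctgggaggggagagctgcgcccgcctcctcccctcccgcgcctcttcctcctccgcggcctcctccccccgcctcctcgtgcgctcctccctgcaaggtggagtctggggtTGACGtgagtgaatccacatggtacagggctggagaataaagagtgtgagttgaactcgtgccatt
JUND: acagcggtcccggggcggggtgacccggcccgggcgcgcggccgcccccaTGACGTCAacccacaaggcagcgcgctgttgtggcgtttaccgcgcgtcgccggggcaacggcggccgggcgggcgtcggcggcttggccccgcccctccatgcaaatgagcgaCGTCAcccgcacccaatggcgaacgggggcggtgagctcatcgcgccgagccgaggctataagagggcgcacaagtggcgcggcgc
JUNB: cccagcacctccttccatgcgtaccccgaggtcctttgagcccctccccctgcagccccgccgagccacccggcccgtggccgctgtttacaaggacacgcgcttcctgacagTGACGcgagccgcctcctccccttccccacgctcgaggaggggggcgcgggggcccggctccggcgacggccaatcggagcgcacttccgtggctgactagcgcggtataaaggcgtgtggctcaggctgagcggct
EGR1: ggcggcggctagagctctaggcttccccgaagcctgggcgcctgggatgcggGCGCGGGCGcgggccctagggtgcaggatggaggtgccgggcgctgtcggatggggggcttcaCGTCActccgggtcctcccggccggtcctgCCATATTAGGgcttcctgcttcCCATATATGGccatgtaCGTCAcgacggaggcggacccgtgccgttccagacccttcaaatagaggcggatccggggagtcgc
IER2: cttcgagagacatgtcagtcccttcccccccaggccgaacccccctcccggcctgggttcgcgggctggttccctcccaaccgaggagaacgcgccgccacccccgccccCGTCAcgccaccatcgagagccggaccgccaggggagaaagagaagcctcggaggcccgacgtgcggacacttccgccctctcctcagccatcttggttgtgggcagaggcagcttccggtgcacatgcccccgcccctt
Capitals mark matches, on either strand, to TGACG (the core of the cAMP response element), TGACGTCA (the full element, which holds TGACG on both strands), TGANTCA (the AP-1 element), GCGNGGGCG (an EGR element) and the CArG box, which serum response factor binds. TGACG or its reverse complement was in all 5 printed windows. It was found for 8 of the 9 members that had a window, against 21.2% of 35116 windows of 250 bases. The printed windows were 68.4% to 74.8% G or C. The shares of all windows given here were not matched for base composition, so they are a rough guide only. JUND held the full element 200 bases before its start, a word in 1.65% of all windows, and another TGACG core at 86 bases. EGR1 held CArG boxes 105 and 83 bases before its start, found in 1.16% of all windows, and an EGR element at 198 bases (8.41% of all windows). No member's window held the AP-1 element, which was in 6.57% of all windows. Of the motifs searched, the windows of the rising FOSL2 and of the falling JUNB and IER2 held only the TGACG core.

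FOSL2, which encodes the FOS-related protein FRA2, had 109, 119.8 and 115 CPM in RNF6 siRNA replicates 1, 2 and 3, against 91.9, 57.6 and 62.9 CPM in control replicates 1, 2 and 3. The groups did not overlap, and control replicate 1 stood well above the other controls. FOSL2 averaged 114 ± 5.35 CPM in RNF6 siRNA and 70.8 ± 18.4 CPM in control libraries (SD, n = 3 each), a 1.62-fold rise (log2 fold change 0.70, SE 0.150, adjusted p = 0.00362). The same gene was called whichever library was left out, with adjusted p up to 0.0317.

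JUND encodes the JUN protein that in many cells is made in the resting state as well as after stimulation. Its level was 154, 138 and 127 CPM in RNF6 siRNA replicates 1, 2 and 3, against 73.6, 106 and 90.2 CPM in control replicates 1, 2 and 3. Every RNF6 siRNA library lay above every control library. The means were 139.8 ± 13.3 CPM in RNF6 siRNA and 90.1 ± 16.4 CPM in control libraries (SD, n = 3 each), a 1.55-fold rise (log2 fold change 0.63, SE 0.132, adjusted p = 0.00289).

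JUNB, a JUN protein that in many settings opposes the growth-promoting action of JUN, moved the other way. It had 63.5, 54.0 and 48.7 CPM in RNF6 siRNA replicates 1, 2 and 3, against 82.7, 105 and 90.03 CPM in control replicates 1, 2 and 3. No RNF6 siRNA library reached the lowest control. The means were 55.4 ± 7.52 CPM in RNF6 siRNA and 92.5 ± 11.2 CPM in control libraries (SD, n = 3 each), 1.67-fold apart with JUNB lower after RNF6 siRNA (SE 0.127 around a log2 fold change of −0.74, adjusted p = 0.000857). In GENCODE 29, exons of HOOK2 on the opposite strand overlap 14.2% of JUNB, and the strand setting of the counting is not given in the sources used here. HOOK2, looked up after the values were seen, had a log2 fold change of 0.27 (adjusted p = 0.0834).

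EGR1 had 115, 109 and 91.7 CPM in RNF6 siRNA replicates 1, 2 and 3, against 139, 151 and 141 CPM in control replicates 1, 2 and 3. The control libraries were close together and all above the RNF6 siRNA libraries. Its means of 105 ± 11.9 CPM in RNF6 siRNA and 144 ± 6.64 CPM in control libraries (SD, n = 3 each) differed 1.37-fold (log2 fold change −0.45, SE 0.107, adjusted p = 0.00632). IER2 was at 50.6, 46.0 and 48.8 CPM in RNF6 siRNA replicates 1, 2 and 3, against 58.7, 69.9 and 62.9 CPM in control replicates 1, 2 and 3. These groups did not overlap either, and the RNF6 siRNA libraries were the tighter group. IER2 was 1.32-fold lower, at 48.5 ± 2.28 CPM in RNF6 siRNA and 63.9 ± 5.66 CPM in control libraries (SD, n = 3 each; log2 fold change −0.40, SE 0.108, adjusted p = 0.0133). Leaving out replicate 2 of the RNF6 siRNA group raised the adjusted p of IER2 to 0.0503, and leaving out replicate 3 of that group raised it to 0.0549, which ended the call. Its adjusted p ran between 0.00211 and 0.0823 in all alternatives. Exons of a noncoding gene on the opposite strand overlap 30.8% of IER2, so its level is uncertain.

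**Figure D1:**
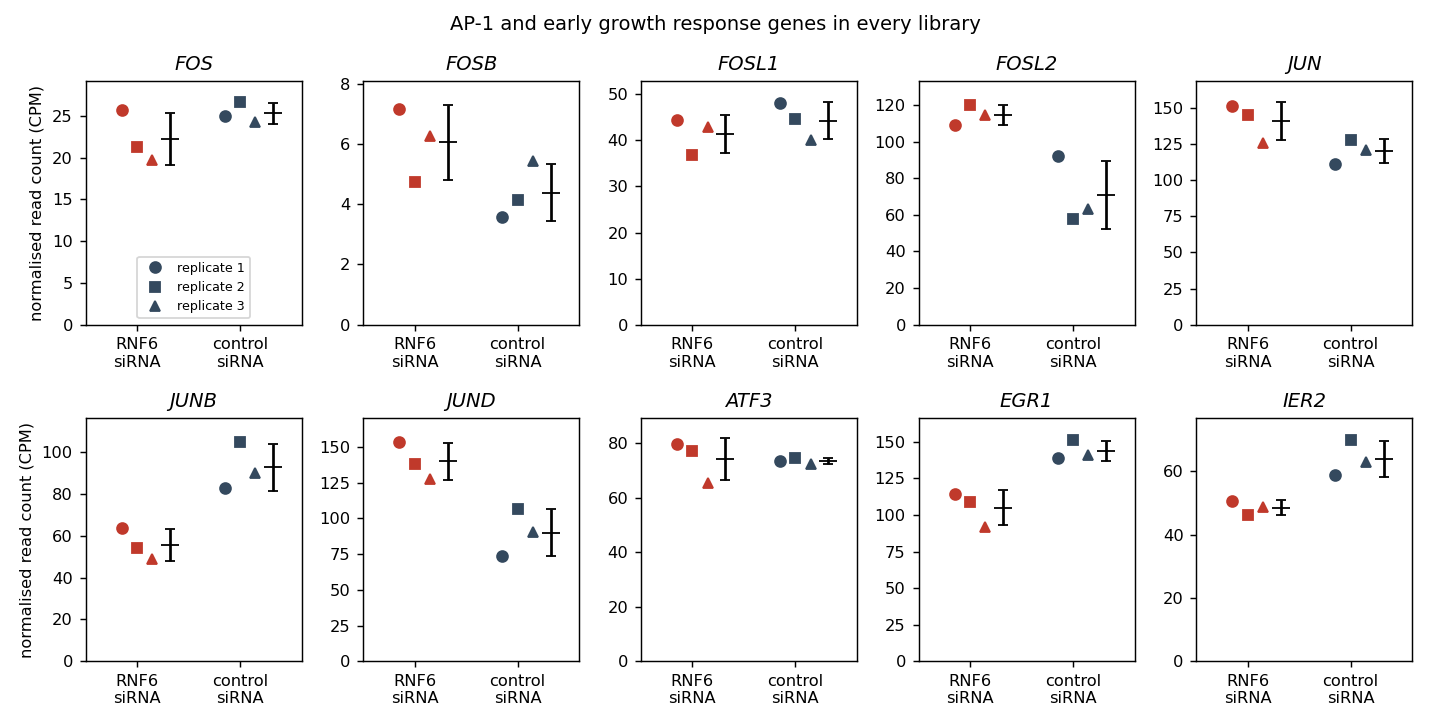
Normalised read counts (CPM, y axes from 0) of the 10 members in each RNF6 siRNA library (red, left) and each control siRNA library (dark blue, right). Symbols give the replicate, and the black bar and whiskers give the mean and SD of 3 libraries. The groups do not overlap for FOSL2, JUND, JUNB, EGR1 and IER2, and overlap for the other 5 genes.

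The remaining members overlapped between the groups. JUN, the partner that gives the family its name, had 151, 145 and 126 CPM in RNF6 siRNA replicates 1, 2 and 3, against 111, 128 and 121 CPM in control replicates 1, 2 and 3. Only RNF6 siRNA replicate 3 lay within the control range. The ratio of RNF6 siRNA to control was 1.17 (95% interval 1.001 to 1.37, edgeR adjusted p = 0.112), a difference that did not pass.

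FOS, the prototype early gene, had 25.7, 21.3 and 19.7 CPM in RNF6 siRNA replicates 1, 2 and 3, against 25.0, 26.6 and 24.2 CPM in control replicates 1, 2 and 3. RNF6 siRNA replicate 1 was inside the control range and the other RNF6 siRNA libraries were below it, and the ratio of RNF6 siRNA to control was 0.881 (95% interval 0.724 to 1.07, adjusted p = 0.309). FOSL1, which encodes FRA1, a FOS protein often abundant in carcinoma cells with an active RAS-ERK pathway, had 44.4, 36.7 and 43.0 CPM in RNF6 siRNA libraries and 48.2, 44.7 and 40.0 CPM in control libraries, in the order of replicates 1, 2 and 3. Its ranges overlapped over most of their width, with a ratio of 0.939 (95% interval 0.787 to 1.12, adjusted p = 0.595).

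FOSB had the fewest reads of the 10, with 78, 32 and 70 counts in RNF6 siRNA replicates 1, 2 and 3 and 26, 37 and 51 counts in control replicates 1, 2 and 3. That is 7.17, 4.72 and 6.28 CPM in RNF6 siRNA and 3.58, 4.14 and 5.44 CPM in control libraries. RNF6 siRNA replicate 2 fell inside the control range, and the ratio of 1.39 had a wide 95% interval of 1.01 to 1.92 (edgeR adjusted p = 0.106). Counts per symbol cannot separate full-length FOSB from its shorter splice form. ATF3 had 79.7, 77.2 and 65.3 CPM in RNF6 siRNA replicates 1, 2 and 3, against 73.3, 74.5 and 72.3 CPM in control replicates 1, 2 and 3. The control libraries lay between the RNF6 siRNA libraries, with a ratio of 1.01 (95% interval 0.858 to 1.18, adjusted p = 0.947).

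Of the 10 members, 2 were higher, or 20%, where 16.6% of all tested genes were called higher, and 3 were lower, or 30%, where 16.1% of all tested genes were called lower. The same 5 genes had no overlap between the groups, against 44.2% of tested genes. The members' median log2 fold change was −0.04, beside 0.01 for all genes tested, and the median size of their log2 fold change was 0.42, beside 0.28. The share called higher lay near the background, and the called members went in both directions. As the members were chosen with earlier results of these data known, their shares and medians are a description only. Fewer cells of a type and less RNA per cell cannot be told apart in bulk libraries. Of the colon epithelial markers, 4 of 7 tested fell. These were the keratins KRT8, KRT18, KRT19 and, at only 3 to 21 reads per library, KRT20. The other 3 did not pass: EPCAM was at 227 ± 15.04 CPM in RNF6 siRNA and 218 ± 9.91 CPM in control libraries, CDH1 at 114 ± 1.98 and 106 ± 1.45 CPM, and CDX2 at 16.1 ± 0.823 and 15.9 ± 2.48 CPM, in the same order (SD, n = 3 each). None of the 7 rose by edgeR, DESeq2 or limma-voom, and 0 were higher at an unadjusted p under 0.05. With no filter on low counts, 1 of the 16 listed markers was higher. That fit also took in markers with few reads. One of them, CDH17, had 4, 5 and 6 reads in RNF6 siRNA and 1, 1 and 0 in control replicates 1, 2 and 3. The summed level of all 16 was 2446 to 2830 CPM in RNF6 siRNA and 4352 to 5653 CPM in control libraries, most of it from KRT8 (1256 ± 104 CPM in RNF6 siRNA and 3064 ± 442 CPM in control libraries) and KRT19. The part of the keratins in the members' differences was not tested.

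**Figure D2:**
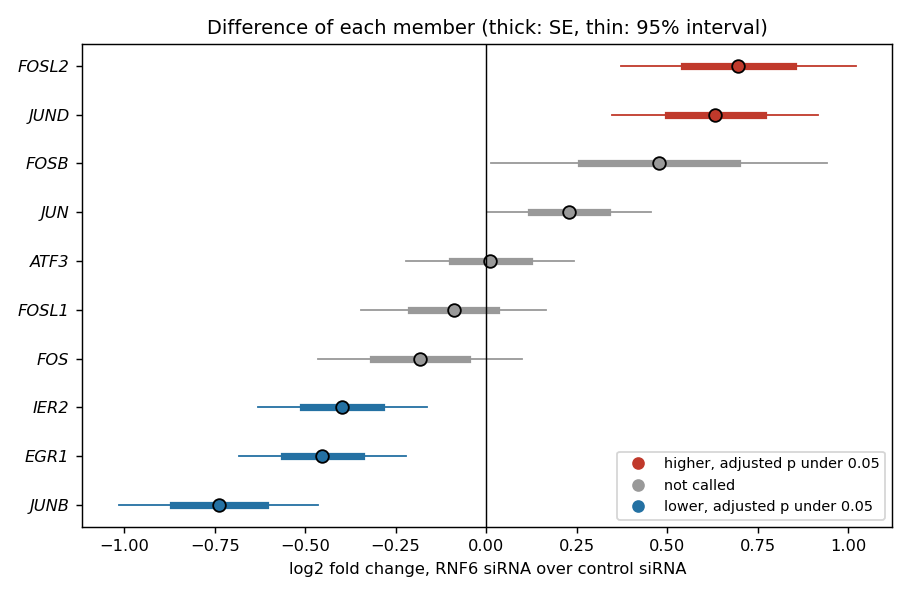
Log2 fold change of each member, RNF6 siRNA over control siRNA, ordered by size on the y axis, with the SE (thick line) and 95% interval (thin line) from the edgeR fit. FOSL2 and JUND lie to the right of 0 and JUNB, EGR1 and IER2 to the left, each with an adjusted p under 0.05.

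Per kilobase of the union of annotated exons, different genes can be compared, although only roughly. JUND was the most abundant member in RNF6 siRNA libraries on that scale, at 75.1 ± 7.12 CPM per kb (SD, n = 3). Its range lay above that of JUN, second at 39.8 ± 3.72. EGR1 (33.5 ± 3.79) and JUNB (30.4 ± 4.13) followed, and neighbouring ranges from JUN to JUNB overlapped. FOSL1 came next at 21.9 ± 2.16, then ATF3 at 18.3 ± 1.91, FOSL2 at 16.0 ± 0.748 and IER2 at 15.8 ± 0.741, again with overlapping neighbours. FOS (6.87 ± 0.966) and FOSB (1.09 ± 0.223) were lowest, each apart from the gene above it.

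The order in control libraries began with JUNB at 50.8 ± 6.18 CPM per kb (SD, n = 3), JUND at 48.3 ± 8.78 and EGR1 at 45.8 ± 2.12, whose neighbouring ranges overlapped. JUN (33.9 ± 2.37) and FOSL1 (23.5 ± 2.17) stood apart from the genes above them. IER2 (20.8 ± 1.84) overlapped FOSL1, ATF3 (18.2 ± 0.275) stood below it, and FOSL2 (9.90 ± 2.58) overlapped FOS (7.81 ± 0.380), with FOSB last at 0.790 ± 0.172. The order depends on the length used. The annotation behind the deposited counts is not given and may differ from the one used for the lengths. Both lengths include bases under opposite-strand exons, 14.2% of JUNB and 30.8% of IER2 by exon union. If reads there were set aside, the levels per kb of JUNB and IER2 are understated. The share of JUNB in the JUN family would then be understated too, and the ratios to JUNB overstated, in both groups. Per kilobase of the longest transcript, ATF3 was at 35.2 ± 3.67 CPM per kb in RNF6 siRNA libraries, above EGR1 and JUNB by mean, and at 34.9 ± 0.528 in control libraries, above JUN by mean, since its exon union is 1.92 times as long as that transcript. FOS on that scale was at 10.3 ± 1.45 in RNF6 siRNA and 11.7 ± 0.571 in control libraries, where it lay above FOSL2 (10.6 ± 2.75) by mean. JUND came first in RNF6 siRNA and JUNB in control libraries by mean with either length.

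Within the JUN family, JUND made up 51.6%, 51.2% and 52.3% of the summed CPM per kb in RNF6 siRNA replicates 1, 2 and 3, against 34.0%, 37.9% and 36.7% in control replicates 1, 2 and 3. JUNB made up 21.8%, 20.5% and 20.5% in RNF6 siRNA libraries, against 39.1%, 38.2% and 37.4% in control libraries, in the same order. The shares of both genes were separated between the groups by far more than they varied within a group. The summed level of the family was 160.1, 145 and 131 CPM per kb in RNF6 siRNA replicates 1, 2 and 3, against 116, 151 and 132 CPM per kb in control replicates 1, 2 and 3. Those sums overlapped between the groups.

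The ratio of JUND to JUNB per kb of exon was 2.37, 2.50 and 2.56 in RNF6 siRNA replicates 1, 2 and 3, against 0.870, 0.992 and 0.979 in control replicates 1, 2 and 3. Per kb, JUND exceeded JUNB in every RNF6 siRNA library and in no control library, a 2.62-fold difference in the ratio. Control replicates 2 and 3 were near equality. Without division by length, JUND was at 106.3 and 90.24 CPM in them and JUNB at 104.8 and 90.03 CPM. The ratio of JUN to JUNB was 1.22, 1.38 and 1.33 in RNF6 siRNA libraries and 0.690, 0.627 and 0.692 in control libraries, a 1.96-fold difference. For FOSL2 to FOSL1 it was 0.648, 0.860 and 0.703 in RNF6 siRNA libraries and 0.503, 0.340 and 0.415 in control libraries, a 1.77-fold difference. These 3 ratios were chosen after the values were seen. In each, all 3 RNF6 siRNA libraries were above all 3 control libraries. The two-sided exact permutation test gave p = 0.10, adjusted p = 0.10 over the 3 ratios. That is the smallest value that 3 against 3 libraries allow. As JUND and JUNB had each separated the groups, in opposite directions, this outcome was fixed beforehand for their ratio. Each other ratio holds JUNB or FOSL2, which had also separated the groups, so the test adds no support to the calls.

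In the FOS family, FOSL1 was the largest component at 47.7 ± 2.68% of the summed CPM per kb in RNF6 siRNA and 56.0 ± 1.92% in control libraries (SD, n = 3 each). FOSL2 made up 34.97 ± 3.32% in RNF6 siRNA and 23.4 ± 3.87% in control libraries. Its share was higher in every RNF6 siRNA library than in any control library. FOS itself contributed 14.9 ± 1.66% in RNF6 siRNA and 18.7 ± 1.94% in control libraries, and FOSB 2.37 ± 0.379% in RNF6 siRNA and 1.92 ± 0.590% in control libraries. The summed level of the family was 48.0, 43.6 and 46.0 CPM per kb in RNF6 siRNA replicates 1, 2 and 3 and 46.7, 40.7 and 38.4 CPM per kb in control replicates 1, 2 and 3, with overlap.

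**Figure D3:**
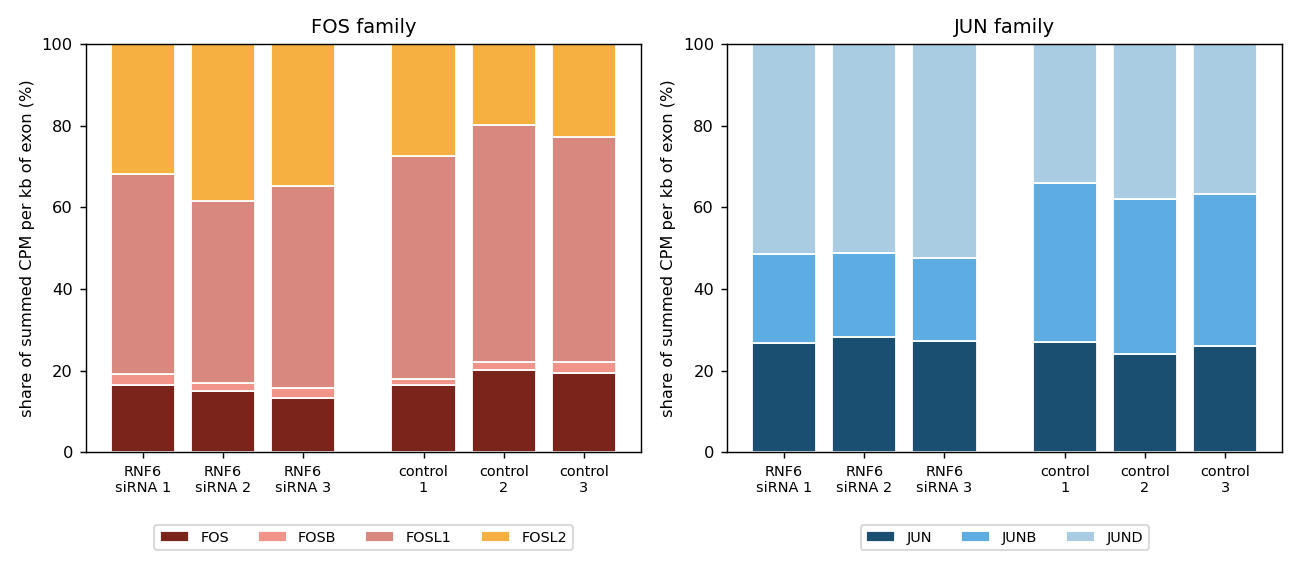
Share of each gene in the summed CPM per kb of exon (y axis, percent) of the FOS family (left) and the JUN family (right), 1 bar per library, RNF6 siRNA replicates 1 to 3 left of control replicates 1 to 3. JUND takes 51.2% to 52.3% of the JUN family in RNF6 siRNA and 34.0% to 37.9% in control libraries.

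Among 12 tested genes of other bZIP proteins that can pair with AP-1 proteins, or belong to the small MAF group, 2 rose and 2 fell, shares of 16.7% each, beside the 16.6% and 16.1% of all tested genes. ATF7, a close relative of ATF2, rose 1.42-fold, at 25.0 ± 0.677 CPM in RNF6 siRNA and 17.6 ± 0.910 CPM in control libraries (adjusted p = 0.00568), although exons of other genes cover 43.8% of it. JDP2, which represses AP-1 sites as a partner of JUN proteins, rose 1.40-fold (adjusted p = 0.0329). BATF2, a partner of JUN proteins induced by interferon, fell 3.48-fold, at 1.30 ± 0.275 CPM in RNF6 siRNA and 4.55 ± 1.28 CPM in control libraries (adjusted p = 0.000506), and BATF3 fell 2.17-fold (adjusted p = 0.0257). JDP2 was no longer called when control replicate 2 or 3 was left out (adjusted p = 0.102 and 0.0883), when replicate 1 or 2 of the RNF6 siRNA group was (0.103 and 0.0844), by DESeq2 (0.103) or when low counts were kept (0.0780), and its adjusted p lay between 0.0289 and 0.103 in all alternatives. BATF3 lost its call when control replicate 3 was left out (adjusted p = 0.132), when replicate 2 or 3 of the RNF6 siRNA group was (0.0817 and 0.127) and by DESeq2 (0.0540), with values between 0.00522 and 0.132 in all alternatives. In each of these cases 1 gene was called in that direction.

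Of 29 tested immediate-early genes beside the members, 14 fell, or 48.3%, and 3 rose, or 10.3%, with a median log2 fold change of −0.19. The growth-factor-responsive matrix gene CTGF fell 2.41-fold, at 8.68 ± 1.52 CPM in RNF6 siRNA and 20.9 ± 1.41 CPM in control libraries (adjusted p = 6.1e-05). ZFP36, which encodes a protein that binds AU-rich elements and speeds the decay of early mRNAs, fell 1.85-fold, at 52.2 ± 6.37 CPM in RNF6 siRNA and 96.7 ± 4.18 CPM in control libraries (adjusted p = 9.35e-05). DUSP5, a nuclear ERK phosphatase, fell 1.76-fold (adjusted p = 0.000118). The antiproliferative gene BTG2 went against these, with a 3.32-fold rise (adjusted p = 6.52e-07), and the other 2 that rose, chosen after their values were seen, were DUSP1 and MIDN. Among all tested genes, 16.1% fell and 16.6% rose. This list and the others were chosen with earlier results of these data known, so their shares are a description only.

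A further list held corepressors of EGR proteins, regulators of the serum response, the cAMP response genes CREB1, CREM and CRTC2, and TCF20. Of its 12 tested genes, 3 fell, or 25%, and 0 rose by edgeR, limma-voom or DESeq2, with 1 higher at an unadjusted p under 0.05. SRF, the factor that binds the CArG box, fell 1.78-fold, at 28.0 ± 1.79 CPM in RNF6 siRNA and 49.9 ± 4.42 CPM in control libraries (adjusted p = 0.000167). ELK3, an ETS-family partner of SRF, fell 1.69-fold (adjusted p = 0.000733) and CREM, a factor of the cAMP response element, 1.45-fold (adjusted p = 0.00610). Without control replicate 1, 2 members of this list were higher, and 1 was higher without RNF6 siRNA replicate 1 or with no filter on low counts in edgeR.

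Of 22 tested kinases upstream of AP-1, 5 fell, or 22.7%, and 3 rose, or 13.6%, beside the 16.1% and 16.6% of all tested genes. MAP3K5, which activates the JNK and p38 pathways under stress, fell 2.31-fold, at 15.5 ± 1.596 CPM in RNF6 siRNA and 35.7 ± 6.31 CPM in control libraries (adjusted p = 6.69e-05). MAP3K1, another activator of JNK, rose 1.65-fold, at 83.5 ± 7.94 CPM in RNF6 siRNA and 50.7 ± 4.98 CPM in control libraries (adjusted p = 0.000521). MAPK9, the gene of the kinase JNK2, fell 1.48-fold (adjusted p = 0.00100), as did MAP2K3, a kinase that activates p38 (adjusted p = 0.00430). Only 1 kinase was higher without control replicate 3 or RNF6 siRNA replicate 3.

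For 15 tested genes of proteins that act in the turnover of AP-1 proteins or early mRNAs, 6 fell, or 40%, and 0 rose in the edgeR fit and in every alternative, DESeq2 and limma-voom among them, with 2 higher at an unadjusted p under 0.05. Besides ZFP36, HNRNPD, which encodes the AU-rich element binding protein AUF1, fell 1.37-fold (adjusted p = 0.00173) and KHSRP, another such protein, 1.39-fold (adjusted p = 0.00280). RFWD2, the gene of the ubiquitin ligase COP1 that acts on JUN proteins, fell 1.46-fold, at 28.1 ± 4.003 CPM in RNF6 siRNA and 40.8 ± 1.601 CPM in control libraries (adjusted p = 0.00477). ZFP36 and 2 of its relatives stand in this list and among the early genes, so the counts are not separate.

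Genes reported as AP-1 targets, 32 of them tested, were lower in 13 cases, or 40.6%, and higher in 3, or 9.38%, with a median log2 fold change of −0.28. The integrin gene ITGA2 fell 3.07-fold, at 108 ± 16.8 CPM in RNF6 siRNA and 330.2 ± 73.9 CPM in control libraries (adjusted p = 1.25e-05). EGFR, the receptor of epidermal growth factor, fell 2.09-fold, at 103 ± 14.2 CPM in RNF6 siRNA and 216 ± 35.04 CPM in control libraries (adjusted p = 8.94e-05), and the cyclin D1 gene CCND1 fell 1.81-fold (adjusted p = 5.7e-05). The fibronectin gene FN1 rose 1.91-fold, at 136 ± 4.34 CPM in RNF6 siRNA and 71.0 ± 8.81 CPM in control libraries (adjusted p = 5.57e-05), and the other 2 that rose, chosen after their values were seen, were MMP14 and VEGFA. KRT19 is in this list and among the colon markers, HBEGF is also among the early genes, and FOSL1 is both a member and in this list.

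Of 25 tested genes reported as EGR1 targets, 7 fell, or 28%, and 4 rose, or 16%, with a median log2 fold change of −0.01. The ERK phosphatase gene DUSP6 fell 2.43-fold with 40.5% of it under exons of another gene (adjusted p = 4.89e-06), ID1, an inhibitor of basic helix-loop-helix factors, fell 2.31-fold (adjusted p = 1.17e-05) and the adhesion gene ICAM1 fell 3.04-fold at a low level, with 2.12 ± 0.522 CPM in RNF6 siRNA and 6.42 ± 0.525 CPM in control libraries (adjusted p = 0.000179). Exons of other genes on the opposite strand cover 23.6% of ICAM1. FN1, VEGFA and others stand in both target lists. EGR2 and EGR3 are also among the early genes, and NAB1 and NAB2 among the EGR corepressors. When control replicate 3 was left out, or replicate 2 or 3 of the RNF6 siRNA group, 4 of the list fell. Protein levels, phosphorylation and DNA binding of the members were not measured here.

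**Figure D4:**
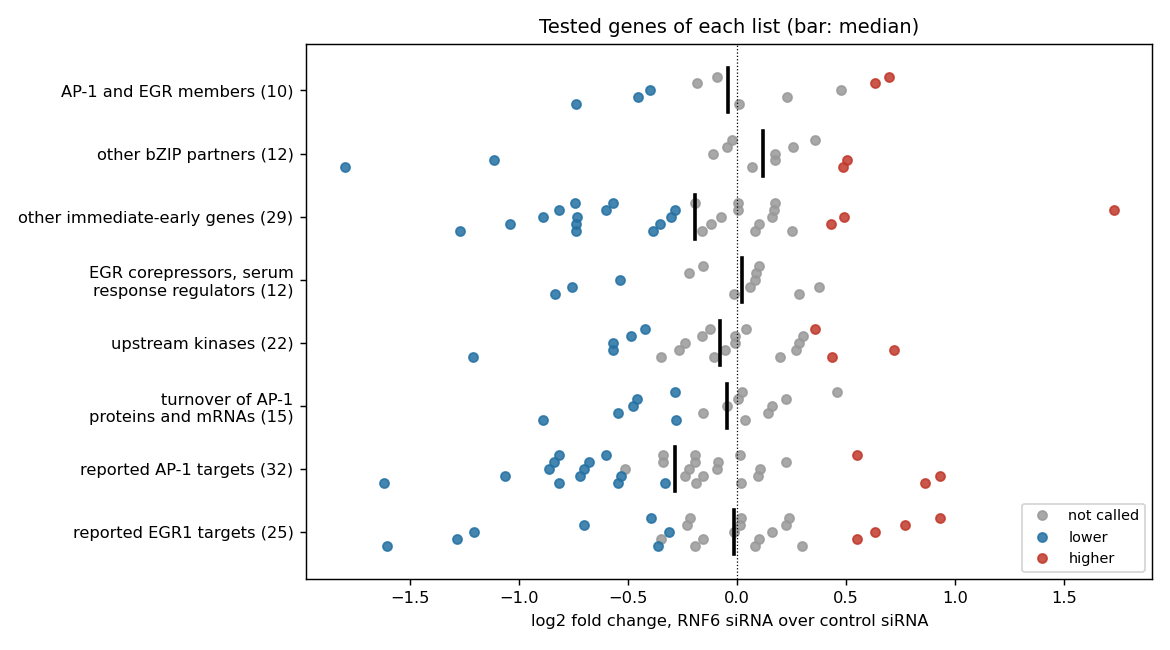
Log2 fold change (x axis, RNF6 siRNA over control siRNA) of every tested gene of the members and of 7 related lists, with the number tested in brackets, the median as a black bar, and genes called higher in red, called lower in blue and not called in grey. The median is −0.04 for the members, −0.19 for the other immediate-early genes and −0.28 for the reported AP-1 targets.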

How the data were processed

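RNA of cells labelled HT29 was extracted with Trizol and made into libraries with an Illumina TruSeq RNA kit, per the labels' protocols. The authors deposited whole-number read counts per gene symbol, with no normalisation and 1 table for each library. TopHat2 2.0.11 and HTSeq were the aligner and the counter, and hg19 (GRCh37) the build, per the submitters' processing notes. No annotation release, HTSeq version or strand setting is given there, and HTSeq sets aside reads shared between genes. Rows that name no gene held 27.3% to 29.4% of the listed reads and were left out.

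The deposited counts were tested with edgeR 4.0.16 in R 4.3.3 (filterByExpr, minimum count 10 and minimum total 15, TMM factors 0.985 to 1.02, glmQLFit with robust dispersion, glmQLFTest, two-sided), with the group as the only term and both groups in 1 fit. P-values were adjusted by Benjamini-Hochberg over 14685 genes and a gene was called under 0.05. Each adjusted p is from this test where no other tool is given. Fold changes are RNF6 siRNA over control siRNA (prior count 0.125), and the SE is the size of the log2 fold change over the square root of F. The 95% intervals use the fit's degrees of freedom. CPM values are TMM-scaled. Exon lengths are unions of GENCODE 29 exons (GRCh38), and no coordinate was carried between builds. Promoter windows are from RefSeq (GRCh38.p14), searched with Python 3.11.15. The script was tested on simulated data. Library pairs of a group differed by more than sampling noise.

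The members and gene lists were chosen with earlier results of these data known. The text names all members, RNF6, and of each other list of AP-1 biology the called genes, up to 4 with the smallest adjusted p or all where 5 or fewer were called. Other scalings (RLE, upper quartile), DESeq2 1.42.0, limma-voom (limma 3.58.1), other filters on low counts, dispersion without robust estimation, a replicate block and leaving out each library were tried.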

Additional observations from a re-analysis of the deposited data

How the results depend on the processing

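Of the 10 members, 2 were called higher under all 14 alternatives, and 2 or 3 were called lower, with 2 where the IER2 call ended. FOSL2, JUND, JUNB and EGR1 were called in their direction under every alternative, and FOS, FOSB, FOSL1 and JUN were never called and kept their sign. Leaving out 1 library gave 2 called higher in each case and 2 to 3 called lower. ATF3, which was never called, had log2 fold changes of −0.0486 to 0.0928 when 1 library was left out, and changed sign with no filter on low counts (log2 fold change −0.000338), without control replicate 3 (−0.00922), without RNF6 siRNA replicate 1 (−0.0486) and without RNF6 siRNA replicate 2 (−0.0189); the cause was not tested. Over all genes, 2442 were higher and 2364 lower, and leaving out 1 library gave 1514 to 2910 higher and 1478 to 2967 lower. The libraries of the groups share replicate numbers. The deviations of same-numbered libraries from their group means correlated at −0.46, −0.25 and 0.05 across genes for numbers 1, 2 and 3. For differently numbered libraries the values ran from −0.24 to 0.46. Deviations from 1 group mean depend on each other, and whether same-numbered libraries were handled together was not tested. With a replicate block 1421 genes were higher and 1321 lower, and the IER2 (adjusted p = 0.0823), BATF3 (0.0763) and JDP2 (0.0983) calls ended. Also with the block, 9 of the other early genes fell, 1 rose, and 4 reported EGR1 targets fell. Of the markers of other cell types, 3 were tested, with 1 higher and 1 lower, and leaving out 1 library gave 0 to 1 higher and 0 to 2 lower. Per kb of the longest transcript, levels were higher than per kb of all exons: FOS 10.3 and 11.7, FOSB 1.605 and 1.16, FOSL1 24.8 and 26.5 and ATF3 35.2 and 34.9 CPM per kb in RNF6 siRNA and control libraries, and FOSL2 17.1 and IER2 16.5 in RNF6 siRNA libraries. That length put FOSL2 at 31.9% of the FOS family in RNF6 siRNA and 21.0% in control libraries. FOSB, at 26 to 78 reads per library, is the member that depth limits most.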

Other observations

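Libraries of a group differed in the same sense across many members. RNF6 siRNA replicate 1 was the highest of its group for 9 of the 10 members, FOSL2 being the exception, and RNF6 siRNA replicate 3 was the lowest for 6. Among control libraries, replicate 2 was the highest for 7 members and replicate 1 the lowest for 6. Reads without a feature were 7.26%, 8.60% and 9.23% of the listed reads in RNF6 siRNA replicates 1, 2 and 3 and 9.04%, 5.90% and 7.07% in control replicates 1, 2 and 3, so in each group the library with the lowest share was the one with most members at their highest. The part of that share in the members' levels was not tested. FOSL2 ran against this order in both groups: it was lowest in RNF6 siRNA replicate 1 and highest in control replicate 1. Among control libraries, FOSL1 was also highest in replicate 1 and FOSB was highest in replicate 3. The order of the libraries was counted for the members only, not over all tested genes.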
